A study of Mus musculus with 10 samples.

Results

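The genes described here encode the machinery of MHC class II antigen presentation in mouse liver: H2-Aa, H2-Ab1, H2-Eb1, H2-DMa, H2-DMb1, Cd74 and Ciita. They were chosen by symbol, as 7 of the 23847 rows of a table of transcript levels, and all 7 were found. The series holds 10 liver RNA samples from 90-day-old mice whose strain is given as a C57/B6 and 129 mix. All animals carried the floxed Arid1a allele (Arid1a Fl/Fl), alone in the group called WT and with Alb-cre in the group called KO. Alb-cre drives Cre recombinase from the albumin promoter in hepatocytes, so the leukocytes and other non-parenchymal cells of a KO liver are not its intended target. The 3 WT and 3 KO livers used here were collected 40 h after partial hepatectomy, and the 4 samples taken before hepatectomy were not analysed here. Whether each library is a separate mouse is not stated, and p-values therefore measure the spread between these libraries.

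MHC class II molecules present peptides from engulfed material to CD4+ T cells. An alpha and a beta chain are assembled in the endoplasmic reticulum with the invariant chain, Cd74, which blocks the groove and guides the complex to endosomes, where lysosomal proteases degrade it and H2-DM exchanges its remnant for an antigenic peptide. In liver these genes are expressed mainly by dendritic cells, B cells and macrophages, including Kupffer cells, and transcription depends on the coactivator Ciita.

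Transcript levels are FPKM (fragments per kilobase of transcript and library size), which can be compared between genes. Summed FPKM ran from 409142 to 495209 per library, and the number of reads behind them was not given in the sources used here. Arid1a stood at 8.68, 8.45 and 8.49 FPKM across WT livers and 4.41, 5.57 and 6.15 across KO livers. Every KO value lay below every WT value, and limma's adjusted p was 0.207. KO replicate 2 stood apart from the others: it held the highest of the 6 values at 32.4% of the 10956 loci with a mean of at least 1 FPKM, the loci that were tested. The hepatocyte genes Alb, Apoa1, Ttr, Serpina1a, Cps1 and Ass1 summed to between 30127 and 39389 FPKM in every library. Alb held the largest part, and the sum hides opposite shifts in KO replicate 2. There Alb was lowest (16226 FPKM) and Apoa1 highest (10615 FPKM) of the 6 libraries. Of these 6 genes 4 were lowest in KO replicate 2, where 12.4% of tested loci were.

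The class II genes did not separate KO from WT livers. None of the 4 members that could be tested was called at an adjusted p under 0.05, where 0.119% of all tested loci were, and for all 7 members the KO and WT values overlapped, where 22.1% of tested loci did not overlap. What most members shared was a pattern across single livers: 5 of the 7 were highest in KO replicate 1 and lowest in KO replicate 2. This order was read from the members' own values, so setting it beside other loci is a description and no test. Of the tested loci 2.67% showed it, a share that leaves out loci under a mean of 1 FPKM. Of the 7 members 3 lay under that mean, H2-DMb1 of the 5 among them. The 7 members summed to 21.7, 29.8 and 17.2 FPKM in WT replicates 1, 2 and 3 and to 40.5, 11.2 and 20.5 FPKM in KO replicates 1, 2 and 3. The highest and the lowest livers were thus both KO, a 3.63-fold range that encloses the WT values.

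Cd74 (chromosome 18, 60803849 to 60812652, mm10), the invariant chain, was the most abundant member and made up between 45.6% and 57.5% of the summed FPKM of the 7 genes. Its level stood at 11.8, 13.6 and 9.91 FPKM across WT livers and 21.2, 5.82 and 11.3 across KO livers. The WT livers lay close together, 1 KO liver lay above all of them and another below. The means were 11.8 ± 1.83 FPKM over WT and 12.8 ± 7.797 over KO livers (SD of 3 libraries), and the log2 difference of FPKM + 1 was -0.044 (SE 0.41, 95% interval -1.01 to 0.92; limma adjusted p = 0.967). The exact two-sided permutation p was 0.9, where the smallest that 3 against 3 allows is 0.1.

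H2-Aa (chromosome 17, 34282751 to 34287771) encodes the alpha chain of the I-A molecule. It stood at 3.68, 6.83 and 2.97 FPKM across WT livers and 9.16, 2.09 and 4.05 across KO livers, again with KO replicate 1 at the top and KO replicate 2 at the bottom. The log2 difference was 0.041 (SE 0.46, 95% interval -1.05 to 1.13; limma adjusted p = 0.973). Its partner H2-Ab1 (chromosome 17, 34263227 to 34269418), which encodes the I-A beta chain, stood at 4.03, 4.93 and 2.596 FPKM across WT livers and 5.37, 1.57 and 2.25 across KO livers. H2-Ab1 had the lowest of the 4 log2 differences, -0.34 (SE 0.36, 95% interval -1.20 to 0.53), and it too missed the threshold (limma adjusted p = 0.667). Although the 2 chains pair in the protein, the ratio of H2-Aa to H2-Ab1 ranged from 0.915 in WT replicate 1 to 1.80 in KO replicate 3.

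H2-Eb1 (chromosome 17, 34305867 to 34316674) encodes the beta chain of the I-E molecule. It stood at 1.03, 2.12 and 0.801 FPKM across WT livers and 2.17, 0.646 and 1.09 across KO livers. The ratio of H2-Aa to H2-Eb1 stayed between 3.23 and 4.21 in all 6 libraries, a narrower range than that of H2-Aa to H2-Ab1. The log2 difference of H2-Eb1 was -0.021 (SE 0.32, 95% interval -0.78 to 0.74; limma adjusted p = 0.978). The I-E alpha gene, which the table lists as the pseudogene H2-Ea-ps, was at 0 in all 6 libraries. C57BL/6 mice are known not to express an I-E alpha chain, and which H2 haplotype each of these mice carried was not given in the sources used here.

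**Figure D1:**
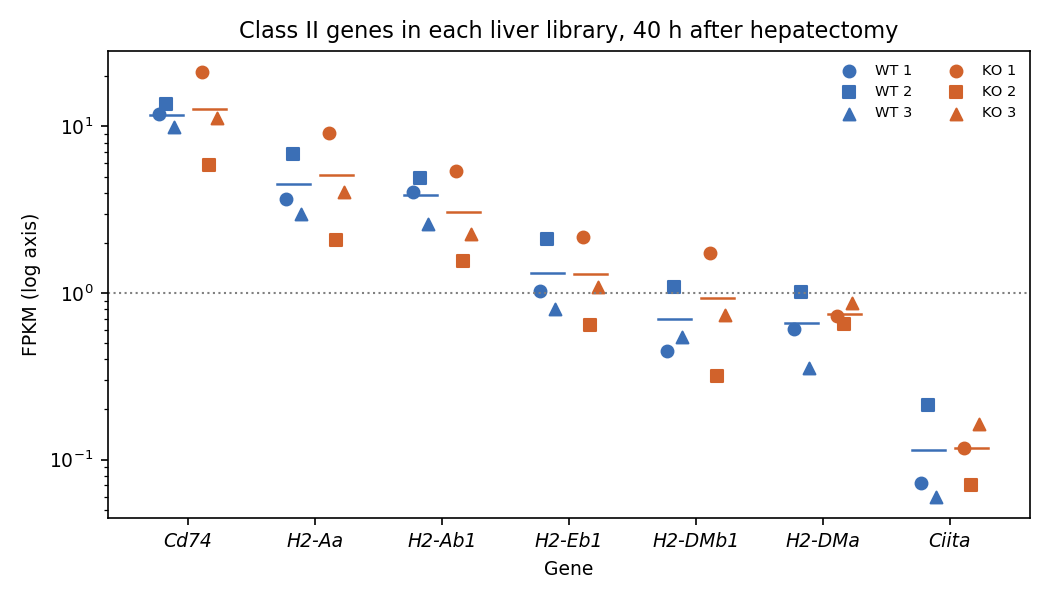
FPKM of the 7 class II genes (log axis) in each of the 3 WT (blue) and 3 KO (orange) libraries, with the marker shape giving the replicate, short lines the group means and the dotted line 1 FPKM. For Cd74, H2-Aa, H2-Ab1, H2-Eb1 and H2-DMb1 the KO replicate 1 value is the highest and the KO replicate 2 value the lowest, and the WT values lie between them.

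H2-DMa and H2-DMb1 encode the chains of the peptide exchange factor H2-DM. Both had means under 1 FPKM and were not tested with the other loci. H2-DMb1 (chromosome 17, 34153191 to 34160229) stood at 0.451, 1.09 and 0.543 FPKM across WT livers and 1.74, 0.319 and 0.737 across KO livers, the same order of livers as the I-A and I-E chains at its top and bottom. With 5.46-fold between its highest and lowest library it had the widest range of the 7 members. Its neighbour H2-DMb2 is a close copy, so the division of reads between the 2 loci is uncertain. H2-DMa (chromosome 17, 34122832 to 34139101) did not follow that order. It stood at 0.609, 1.02 and 0.353 FPKM across WT livers and 0.72998, 0.651 and 0.876 across KO livers, so its lowest and its highest library were both WT. The exact permutation p was 0.6 for H2-DMa and 0.7 for H2-DMb1 (n = 3 each).

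Ciita (chromosome 16, 10480072 to 10527564), which encodes the coactivator that class II transcription depends on, was the least abundant member. It stood at 0.0724, 0.211 and 0.06002 FPKM across WT livers and 0.117, 0.0704 and 0.165 across KO livers. The highest value came from WT replicate 2 and the lowest from WT replicate 3, and the KO values all lay between them. Levels this low rest on few reads, and the depth needed to set an interval is unknown. The means were 0.115 ± 0.08404 FPKM over WT and 0.117 ± 0.0471 over KO livers (SD of 3 libraries), with an exact permutation p of 0.9. The order of the levels over the 6 libraries was Cd74, H2-Aa, H2-Ab1, H2-Eb1, H2-DMb1, H2-DMa and Ciita. Within each library, Cd74 lay above H2-Aa, H2-Ab1 above H2-Eb1, H2-Eb1 above H2-DMb1, and H2-DMa above Ciita. H2-Aa and H2-Ab1, and H2-DMb1 and H2-DMa, changed places between libraries, so these neighbours do not differ beyond their spread.

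Class II promoters carry an upstream X box and a downstream Y box, the sites of the RFX complex and of NF-Y, on which Ciita is assembled. Promoters of 3 of the 5 members that shared the order of livers given above are printed to show these elements. Sequences were taken from RefSeq (GRCm38.p6, the assembly of mm10) for the 130 bases before the start site, 5′ to 3′ on the gene's strand. Capitals mark matches on either strand to ACNGATG, used here as the X box core, and to GATTGG, the Y box core, letters that were chosen after these promoters were seen.
H2-Eb1: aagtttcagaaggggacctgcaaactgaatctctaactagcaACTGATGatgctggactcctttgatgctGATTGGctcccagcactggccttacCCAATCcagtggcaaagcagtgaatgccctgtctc
H2-DMb1: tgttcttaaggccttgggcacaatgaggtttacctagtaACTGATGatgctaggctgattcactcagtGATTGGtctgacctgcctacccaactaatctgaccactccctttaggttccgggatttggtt
H2-Aa: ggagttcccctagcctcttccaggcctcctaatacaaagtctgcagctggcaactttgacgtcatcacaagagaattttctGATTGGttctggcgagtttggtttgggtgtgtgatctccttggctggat
The H2-Eb1 window is chr17:34305737-34305866 on the plus strand, that of H2-DMb1 chr17:34153061-34153190 on the plus strand and that of H2-Aa chr17:34287824-34287953 on the minus strand.

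The X box core began 88 bases before the start in H2-Eb1 and 91 bases before it in H2-DMb1, read ACTGATG in both, and was followed by a Y box core after 21 and 22 bases. H2-Eb1 had a further GATTGG on the opposite strand. The H2-Aa window held a Y box core 49 bases before the start and no match to the X box letters. An X box that reads otherwise would not be marked, so H2-Aa is not shown to lack one. Neither start site of H2-DMa had a match to the X or the Y letters in this window. A link between these letters and the order of livers was not tested. Of 32851 RefSeq promoter windows of this length, 4.22% held the X letters, 10.1% the Y letters and 0.405% both. H2-Eb2 and H2-DMb2, the neighbouring relatives of H2-Eb1 and H2-DMb1, also held both, and their levels reached at most 0.0465 and 0.380 FPKM. The other class II relatives scanned, H2-Oa and H2-Ob, held the Y letters without a match to the X letters. A match is a description of the letters only. H2-Ab1 and Ciita had no entry in the promoter table, and the Cd74 promoter was not analysed here.

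The spread of the class II genes was wide for this data set. The residual SD of H2-Aa on the log2 scale was 0.71, larger than at 93.4% of tested loci, and that of Cd74 was 0.62, larger than at 91.4%. For H2-Ab1 and H2-Eb1 the corresponding shares were 88.8% and 83.0%. The median log2 difference of the 4 tested members was -0.032, beside 0.15 for all tested loci. Differences of up to about the interval bounds given above remain inside the error, so the members are not shown to be alike in WT and KO. No member was called when any 1 library was left out, also not without KO replicate 2, where 1.93% of all tested loci were called. With no filter on low values, none of the 7 members was called, and neither was any other locus (0%). The sign of the log2 difference did depend on single libraries: without KO replicate 2, that of Cd74 was 0.38 and that of H2-Eb1 0.19, and without KO replicate 1 that of H2-Aa was -0.41.

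**Figure D2:**
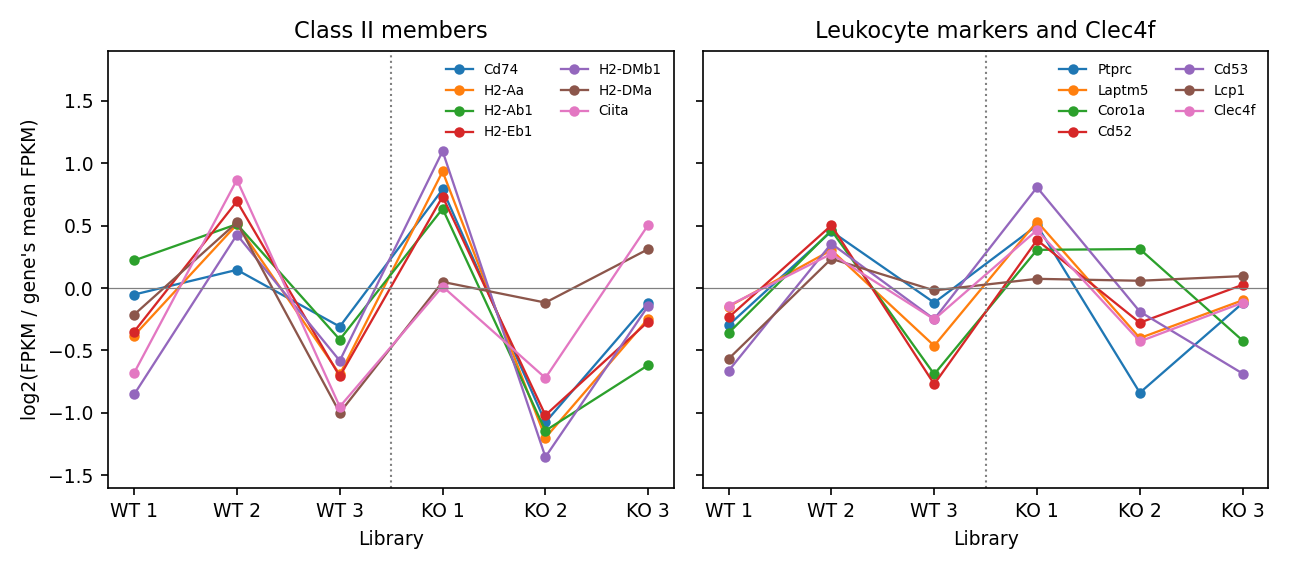
log2 of each gene's FPKM over its own mean of the 6 libraries, for the 7 class II members (left) and for 6 leukocyte markers with the Kupffer cell lectin Clec4f (right), with a dotted line between WT and KO. Most class II lines peak at WT replicate 2 and KO replicate 1 and dip at KO replicate 2, and Ptprc, Laptm5 and Clec4f show a smaller swing of the same shape.

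Markers of the cells that carry class II were set beside the members, since in bulk tissue fewer cells of a type and less RNA per cell cannot be told apart. The 6 markers of all leukocytes (Ptprc, Laptm5, Coro1a, Cd52, Cd53 and Lcp1) summed to between 15.2 and 25.0 FPKM in WT and between 18.5 and 25.2 FPKM in KO, with the highest sums in KO replicate 1 and WT replicate 2. Ptprc, which encodes CD45, stood at 1.13, 1.91 and 1.28 FPKM across WT livers and 1.97, 0.778 and 1.28 across KO livers. The ratio of Cd74 to Ptprc, chosen after their values were seen, ranged 1.51-fold over the 6 libraries, from 7.12 to 10.8, where Cd74 itself ranged 3.64-fold. The ratio of all 7 members to all 6 leukocyte markers was 1.43, 1.19 and 1.04 for the WT libraries and 1.605, 0.605 and 1.08 for the KO libraries. KO replicate 2 remained lowest and KO replicate 1 highest against this sum, of which Lcp1 held the largest part in every library. Lcp1 hardly varied across KO livers, at 8.71, 8.62 and 8.84 FPKM. Against Ptprc alone, Cd74 was lowest in WT replicate 2 (7.12), with KO replicate 2 at 7.48, so the result depends on the marker chosen.

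The 15 Kupffer cell and macrophage markers summed to between 147 and 215 FPKM in WT and between 167 and 254 FPKM in KO. Of the 15, 9 were highest in KO replicate 1, where 16.6% of tested loci were. Only 4 were lowest in KO replicate 2 (12.4% of tested loci), and 3 had both ends of the class II order (2.67%). Clec4f, a lectin of Kupffer cells, stood at 19.4, 25.8 and 17.97 FPKM across WT livers and 29.5, 15.9 and 19.7 across KO livers, the order of H2-Aa at the top and bottom. Marco, a macrophage scavenger receptor, ran the other way in the extreme liver: it stood at 9.84, 8.99 and 5.11 FPKM across WT livers and 16.9, 27.6 and 11.8 across KO livers, with its highest value in KO replicate 2, where class II was lowest. Cd68, a lysosomal glycoprotein of macrophages, was also highest in KO replicate 2, at 10.4 FPKM. No Kupffer cell or leukocyte marker was called between KO and WT, and the part of these cells in the class II values was not tested.

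Markers of B cells and dendritic cells, the other class II bearing cells named above, were low. No B cell marker reached a mean of 1 FPKM, and the 11 summed to between 1.88 and 2.96 FPKM in WT and between 2.22 and 2.71 FPKM in KO. The most abundant was Cd37, a leukocyte tetraspanin, at 1.299, 1.52 and 0.0718 FPKM across WT livers and 1.44, 0.926 and 0.727 across KO livers. Bank1, an adaptor of B cell receptor signalling, reached at most 0.837 FPKM and Ms4a1 at most 0.159 FPKM, and Pax5 was at 0 in all 6 libraries. Among 13 dendritic cell markers only Zbtb46 reached a mean of 1 FPKM (1.59 FPKM over the 6 libraries), and Itgax, Flt3 and Xcr1 reached at most 0.208, 0.118 and 0.1697 FPKM. Clec9a, a receptor of the dendritic cells that cross-present antigen, stood at 0.411, 1.08 and 0.428 FPKM across WT livers and 0.897, 0.627 and 1.09 across KO livers. Monocyte markers summed to between 2.58 and 4.66 FPKM in the 6 libraries, and cholangiocyte markers to between 12.1 and 29.0 FPKM. The 9 T and NK cell markers in the table, all with means under 1 FPKM, summed to 0.962, 1.02 and 1.40 FPKM in WT replicates 1, 2 and 3 and to 1.87, 0.383 and 1.35 FPKM in KO replicates 1, 2 and 3. This sum, like that of class II, was highest in KO replicate 1 and lowest in KO replicate 2, with a 4.87-fold range. Its single markers mostly did not share that order. Of the 9, 5 were highest in KO replicate 1 and 1 was also lowest in KO replicate 2, where 16.6% and 2.67% of tested loci were. Nkg7 stood at 0.291, 0.364 and 0.602 FPKM across WT livers and 0.134, 0 and 0 across KO livers, and Klrb1c was at 0 in every KO library. Of the 9, 8 were at 0 in some library, and the part of these cells in the class II values was not tested. Sinusoidal endothelial markers summed to between 57.3 and 87.1 FPKM and were lowest in KO replicate 1 and WT replicate 1, at 57.3 and 57.4 FPKM, the first being the liver with the most class II transcript.

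**Figure D3:**
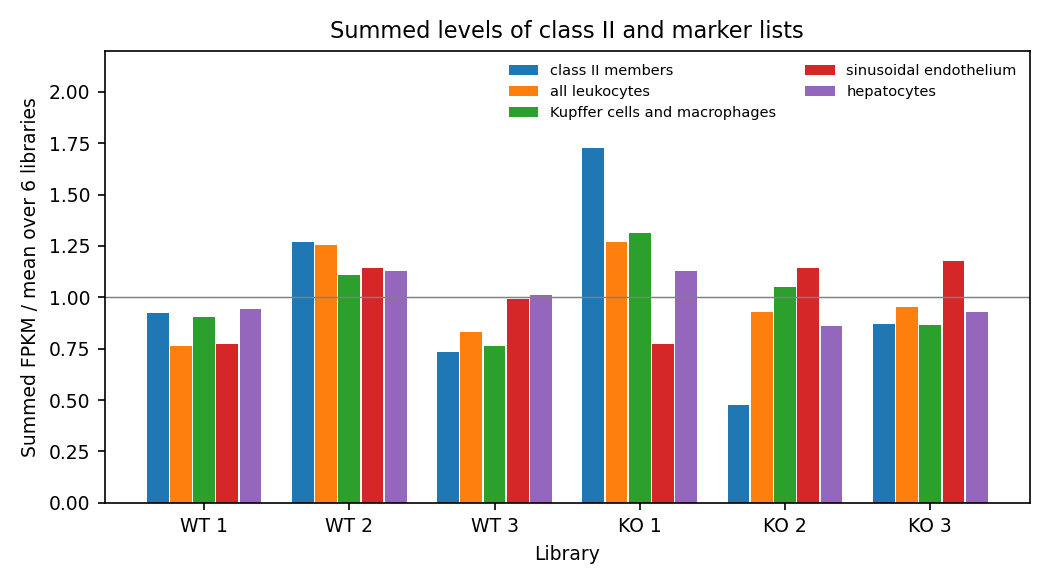
Summed FPKM of the 7 class II members and of 4 marker lists in each library, divided by the mean of that sum over the 6 libraries (line at 1). The class II bar is the tallest in KO replicate 1 and the shortest in KO replicate 2, whereas the sums of the leukocyte, Kupffer cell, endothelial and hepatocyte lists range less than 1.73-fold.

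Other genes of the pathway were taken from 7 lists, of which 42 members were tested. None was called, where 0.119% of all loci were. Of the 42, 13 (31.0%) did not overlap between KO and WT, where 22.1% of all tested loci did not. All KO values lay above WT for 10 of them (16.7% of all tested loci) and below WT for 3 (5.44%). After median-of-ratios rescaling, which moved the median log2 difference of all loci from 0.15 to 0.015, these became 6 and 6, where 7.87% of all tested loci lay above and 9.9% below, 17.8% in all. The remaining class II loci were near the floor. H2-DMb2, H2-Oa, H2-Ob and H2-Eb2 reached at most 0.380 FPKM. March1, a ubiquitin ligase that removes class II from the cell surface, stood at 0.379, 0.908 and 0.471 FPKM across WT livers and 0.786, 0.207 and 0.568 across KO livers, lowest in the same liver as H2-Aa. The table lists it under a date made from its symbol, and it was recognised by its position on chromosome 8.

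Among 10 lysosomal processing genes, Ctss, the cathepsin that finishes the degradation of the invariant chain in antigen-presenting cells, stood at 10.3, 16.8 and 8.35 FPKM across WT livers and 14.8, 10.6 and 11.1 across KO livers. Ifi30, which encodes the thiol reductase GILT, was 10.2 ± 2.26 FPKM over WT and 9.15 ± 1.29 over KO livers (SD of 3 libraries). Ctsl and Ctsh differed more between the groups, without passing the threshold. Ctsl, cathepsin L, stood at 205, 166 and 220 FPKM across WT livers and 254, 337 and 254 across KO livers (log2 difference 0.51, SE 0.21, limma adjusted p = 0.318). Ctsh, cathepsin H, stood at 103, 107 and 106 FPKM across WT livers and 76.4, 57.3 and 73.3 across KO livers (log2 difference -0.62, SE 0.17, limma adjusted p = 0.232). The levels of both were many times those of Ctss, and hepatocytes also express them.

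Of the 7 genes for promoter-binding factors, Rfx5, a DNA-binding subunit of RFX, stood at 0.999, 1.28 and 1.895 FPKM across WT livers and 2.15, 2.55 and 3.25 across KO livers. All KO values lay above all WT values, and limma's adjusted p was 0.282 (log2 difference 0.62, SE 0.21). Its partners Rfxap and Rfxank overlapped between the groups. Nfyc, of NF-Y, stood at 9.25, 8.06 and 7.97 FPKM across WT livers and 9.57, 10.5 and 11.3 across KO livers. These values did not overlap, but did after median-of-ratios rescaling (log2 difference 0.28, SE 0.14, limma adjusted p = 0.371). Rfxap averaged 3.395 ± 0.607 FPKM over WT and 3.83 ± 0.948 over KO livers, and Rfxank 1.998 ± 0.942 FPKM over WT and 1.97 ± 0.125 over KO livers (SD of 3 libraries). Nfya stood at 2.55, 2.33 and 2.09 FPKM across WT livers and 3.15, 2.24 and 3.29 across KO livers (limma adjusted p = 0.540). Of the 7 factors, 1 was lowest in KO replicate 2, the liver lowest for the class II chains. This was Nfyb, at 8.31 FPKM there. Ifng, the cytokine that induces Ciita, was listed at 0 in 5 libraries and at 0.147 FPKM in WT replicate 2. Ifngr1, a chain of its receptor, lay lower in KO, at 9.52, 13.1 and 9.29 FPKM across WT livers and 8.92, 7.897 and 5.54 across KO livers (limma adjusted p = 0.349).

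The class II chains share a stretch of chromosome 17 with class I processing genes. The 11 loci of the table between H2-DMa and H2-Eb1 (34122832 to 34316674, mm10) include Psmb9, Tap1, Psmb8 and Tap2, which encode immunoproteasome subunits and the peptide transporter that serves class I. Tap1 stood at 3.38, 3.44 and 6.196 FPKM across WT livers and 7.36, 9.68 and 7.57 across KO livers (log2 difference 0.82, SE 0.23, limma adjusted p = 0.234). Psmb9 stood at 5.59, 2.82 and 7.68 FPKM across WT livers and 8.95, 7.43 and 15.2 across KO livers, so that KO replicate 2 overlapped WT (log2 difference 0.88, SE 0.36, limma adjusted p = 0.325). Psme2, a subunit of the proteasome activator PA28 encoded elsewhere, stood at 36.2, 35.6 and 36.9 FPKM across WT livers and 46.8, 49.1 and 43.04 across KO livers, without overlap (log2 difference 0.34). H2-K1, a class I heavy chain gene, lay lower in KO, at 219, 255 and 230 FPKM across WT livers and 182, 139 and 144 across KO livers (log2 difference -0.60, SE 0.19, limma adjusted p = 0.255), and its reads can be shared with other class I genes. Over the 16 class I presentation genes the median log2 difference was 0.26, and none was called. Of the 16, 5 had all KO values above WT (16.7% of all tested loci did) and 1 had all below (5.44%), which became 3 and 2 after median-of-ratios rescaling (7.87% and 9.9% of all tested loci). None of the 4 tested class II members separated the groups in this way, and a difference between the classes was not tested.

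**Figure D4:**
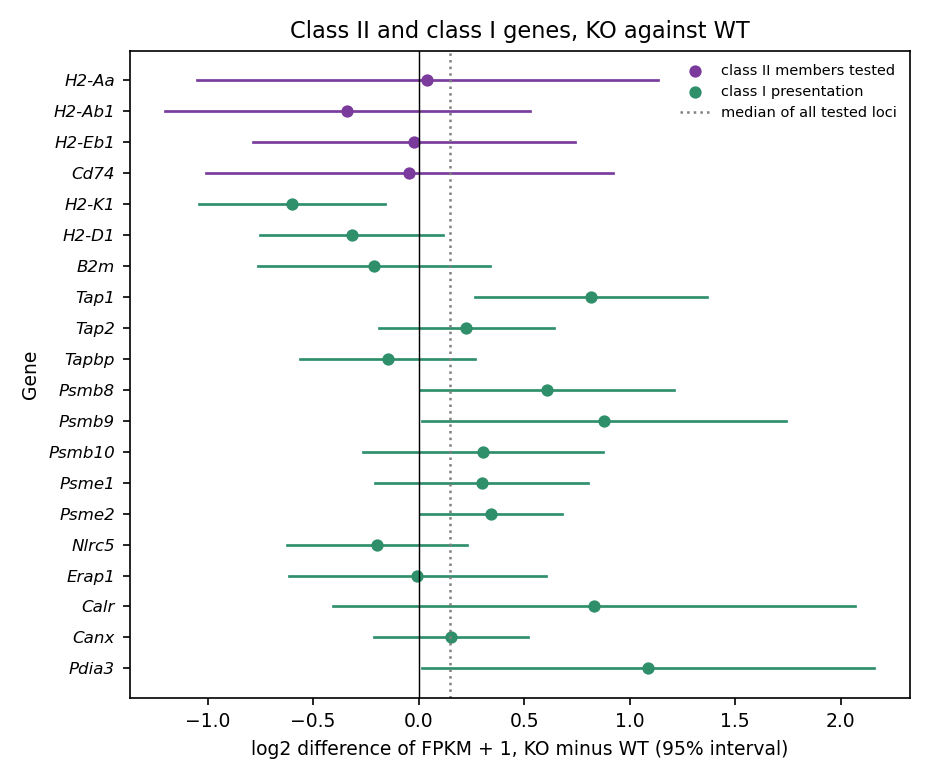
log2 difference of FPKM + 1 between KO and WT with its 95% interval (limma), for the 4 tested class II members (purple) and 16 class I presentation genes (green), with a dotted line at the median of all tested loci, 0.15. The class II intervals all span 0 and are wide, from -1.20 to 1.13 between their outermost bounds.

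The loci whose pattern over the 6 libraries was most like the mean of the 4 tested members were found by Pearson r among 6213 loci that varied at least 0.5 times as much. The 6 named loci with the highest r were Clec4f (r = 0.98), Cyp2c40 (0.96), Slc25a22 (0.96), Gin1 (0.95), Cybb (0.95) and Etv5 (0.95). Being the extreme of many loci over 6 libraries, these values are a description with no p. Without KO replicates 1 and 2, the livers at the ends of the pattern, r over the remaining 4 libraries lay between 0.83 and 0.99. Cybb, the NADPH oxidase subunit of phagocytes, stood at 1.61, 2.47 and 1.61 FPKM across WT livers and 3.73, 1.08 and 1.98 across KO livers. Cyp2c40, a cytochrome P450 gene whose close copies make the division of reads uncertain, stood at 48.1, 83.8 and 42.4 FPKM across WT livers and 81.5, 23.3 and 36.1 across KO livers, so the list holds genes of phagocytes beside a gene of liver metabolism.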

How the data were processed

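RNA was measured in liver 40 h after hepatectomy in 3 WT and 3 KO libraries. The authors deposited FPKM per gene locus, per the file headers. The submitters' processing notes name TopHat, edgeR, mm9 and mm10, without roles or versions, and locus positions match mm10. The criterion by which the table was filtered, the strand setting and read totals were not given in the sources used here. FPKM scales with library total, so abundant transcripts shift all others.

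Of 23847 loci, 312 marked LOWDATA were left out. Values at the floor of 0.001 were set to 0. Loci with a mean of at least 1 FPKM (10956) were compared as log2(FPKM + 1) in limma 3.58.1 (R 4.3.3; trend, genotype only, Benjamini-Hochberg over all loci, calls under 0.05), so a log2 difference understates the change of low genes. The script was tested on simulated data. Exact permutation tests used 20 assignments. Every count of the 7 pathway lists and of the marker lists is described without a test. By rule, up to 4 genes per pathway list with the smallest p were to be given with values. Of the others given with values, Ctss, Ifi30, Rfxank, Ifng, March1 and the costimulatory and marker genes were picked for their role after the values were seen. The members and lists were chosen with earlier results of these data known. There were 12 alternatives: pseudocount, filter, 2 rescalings, trend, replicate block and each library left out. A ratio to leukocyte markers was added after seeing the data.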

Additional observations from a re-analysis of the deposited data

How the results depend on the processing

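No class II member and no gene of the 7 pathway lists was called under any of the 12 alternatives. The median log2 difference of the 4 tested members moved by less than the spread between replicates in all of them, from -0.44 to 0.29 with 1 library left out, and was -0.23 after division by the leukocyte markers. H2-Ab1 stayed negative under every alternative, from -0.72 to -0.062 with 1 library left out. The sign changed for H2-Aa after median-of-ratios rescaling (-0.084), after quantile normalization (-0.11), and without WT replicate 1 (-0.043), WT replicate 3 (-0.16) or KO replicate 1 (-0.41), within a range of -0.41 to 0.45. It changed for H2-Eb1 without WT replicate 2 (0.21), KO replicate 2 (0.19) or KO replicate 3 (0.023), within -0.28 to 0.21, and for Cd74 without WT replicate 2 (0.056) or KO replicate 2 (0.38), within -0.47 to 0.38. The cause was not tested.

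Over all tested loci, 13 were called, 2 higher and 11 lower in KO. After median-of-ratios rescaling 0 were higher and 13 lower, and after quantile normalization 0 and 14. Without a filter on low values limma called 0 of 23535 loci (2111 at an unadjusted p under 0.05). With 1 library left out the count ran from 0 to 211: it was 0 without WT replicate 1, 2 without WT replicate 2, 3 without WT replicate 3, 1 without KO replicate 3 and 211 without KO replicate 2, of which 171 were higher and 40 lower in KO, the opposite balance to that with all libraries. With a replicate block it was 47. The labels do not say that the replicate numbers pair animals. Same-numbered libraries deviated with r = -0.084, 0.16 and 0.16 over loci for numbers 1, 2 and 3. Libraries with different numbers deviated with r from -0.26 to 0.17. With 3 libraries per group these values cannot decide whether the numbers pair animals. Few reads limit H2-DMa, H2-DMb1 and Ciita.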

Other observations

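The costimulatory genes, whose products accompany class II on antigen-presenting cells, were all under a mean of 1 FPKM and none was tested. Cd86 stood at 0.7199, 0.537 and 0.503 FPKM across WT livers and 0.804, 0.589 and 0.363 across KO livers, highest in the same liver as H2-Aa but lowest in KO replicate 3. Cd274, which encodes the inhibitory ligand PD-L1, stood at 0.412, 0.279 and 0.747 FPKM across WT livers and 1.21, 0.626 and 0.185 across KO livers, so its highest and lowest libraries were both KO. Icosl was 0.625 ± 0.271 FPKM over WT and 0.649 ± 0.217 over KO livers (SD of 3 libraries), and Pdcd1lg2, the gene of PD-L2, was listed at 0 in 5 of the 6 libraries.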
